A study of Mus musculus with 7 samples.

Results

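The genes described here are interferon-stimulated genes, a set of 40 named genes whose transcription rises when a cell senses virus-like nucleic acid or binds an interferon. They were followed in mouse kidney tissue of stage E12.5 and in the kidney cell line mIMCD-3, on 7 Affymetrix Mouse Genome arrays. The set was chosen by its measured log2 values in mIMCD-3, since several of its genes were high there, so their levels in that line are given as a description, with no test. A gene counted as measured where at least 1 probe set, the group of probes that reads a transcript, was annotated to it and to no other gene. By that rule 38 of the 40 genes were measured, through 62 probe sets, out of 18193 genes and 45101 probe sets on the array. Isg15 was left out because its only probe set is shared with another gene, and Ifi44 because no probe set matched it.

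The tissues were microdissected from E12.5 kidneys: the metanephric mesenchyme and, from the ureteric bud, its stalks and its tips, with 2 biological replicate arrays per group. The ureteric bud is the epithelial tube that branches into the mesenchyme and becomes the collecting duct system. A single array held mIMCD-3, a mouse inner medullary collecting duct line, here a freshly isolated subclone grown to confluency in DMEM. No treatment with interferon or any other agent is stated for a group, and the mouse strain is not given in the sources used here. The line is 1 subclone on 1 array added to arrays published before, so the cell line and the separate array run cannot be told apart.

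Interferons of type I (alpha and beta) bind the receptor pair Ifnar1 and Ifnar2, and the kinases Jak1 and Tyk2 then phosphorylate STAT2. With IRF9 it takes part in a complex that binds the interferon-stimulated response element, ISRE, in the promoters of target genes. Interferon gamma acts on another element, GAS. Cells also make such transcripts at rest or after sensing their own nucleic acids, and the products block viral translation, degrade RNA, present antigen or feed back on the pathway. In the kidney they are best known from defence against infection and from inflammation.

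The deposited values are intensities from robust multichip analysis (RMA), which puts the probe intensities of all arrays on 1 distribution before summarising them. They are given here as log2. The summarised values still differed between arrays, with median intensities from 42.1 in mIMCD-3 to 49.2 in tip replicate 2. A difference of 1 log2 unit is a 2-fold difference. RMA gives no detection call and compresses differences of dim genes. In all 6 tissue arrays, 28 of the 38 genes lay below the median gene of the array (8066 of all 18193 genes did), and 10 lay below its lower quartile. These 10 were Ifit1, Cxcl10, Gbp2, Gbp3, Usp18, Parp14, Oasl2, Irf7, Xaf1 and Mx1, and the sizes of their folds are uncertain. In mIMCD-3, 14 lay below the median and 2, Mx1 and Iigp1, below the lower quartile. The level of 1 probe set cannot be set against that of another.

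The dissections matched their labels in the marker lists, and the cell line did so in part. Of 8 ureteric bud markers, 7 were higher in stalk than in mesenchyme and 8 in tip, and of 8 mesenchyme markers 6 were lower in stalk and 7 in tip. The summed intensity of the mesenchyme markers was 9698 to 10188 in mesenchyme, 4519 to 4602 in stalk and 853 to 1111 in tip. The stalk arrays thus kept more mesenchyme marker signal than the tip arrays. In mIMCD-3 the epithelial markers Cdh1 (10.88), Epcam (10.79), Krt8 (12.31) and Cdh16 (9.42) were bright. The other 4 ureteric bud markers were at least 2 log2 units below the tissue mean there, at 3.38 for Calb1, 4.12 for Ret, 4.48 for Gata3 and 6.65 for Wnt11. All 8 collecting duct transport markers, Aqp2, Aqp3, Aqp4, Avpr2, Scnn1a, Scnn1b, Scnn1g and Slc14a2, lay below the median gene of the mIMCD-3 array. The summed intensity of 12 macrophage markers was 1144 to 1303 in mesenchyme, 756 to 783 in stalk, 435 to 491 in tip and 366 in mIMCD-3. The sum of 10 endothelial markers was 3693 to 4064, 2452 to 2537, 1179 to 1229 and 496 in the same order.

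**Figure D1:**
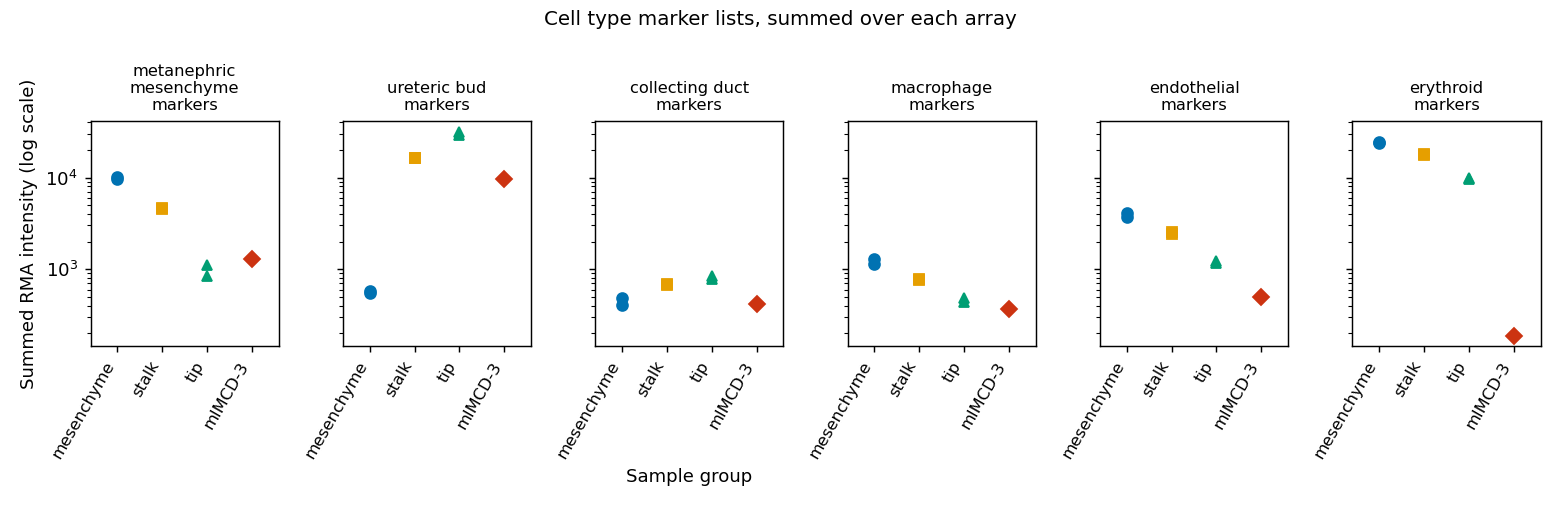
Summed RMA intensity (log axis) of 6 marker lists on each array, 2 points for each tissue and 1 for mIMCD-3. Macrophage, endothelial and erythroid sums were highest in mesenchyme, lower in stalk and tip and lowest in mIMCD-3.

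In mIMCD-3, 24 of the 38 genes were at least 1 log2 unit above the mean of the 6 tissue arrays, against 10.2% of all genes, and 1 was at least 1 log2 unit below it, against 9.5%. The line lay above all 6 tissue arrays for 32 genes (30.7% of all genes), below all 6 for 2 (34.4%) and within the tissue range for 4. Because the high values in this line chose the genes, nothing is read from these shares. The median difference was 1.40 log2 units over the 38 genes and -0.06 over all genes. The differences ran from -3.70 to 6.70, with 17 genes at 2 log2 units or more and 10 at 3 or more. At the threshold, Irf9 lay just inside at 1.06 and Igtp just outside at 0.90.

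**Figure D2:**
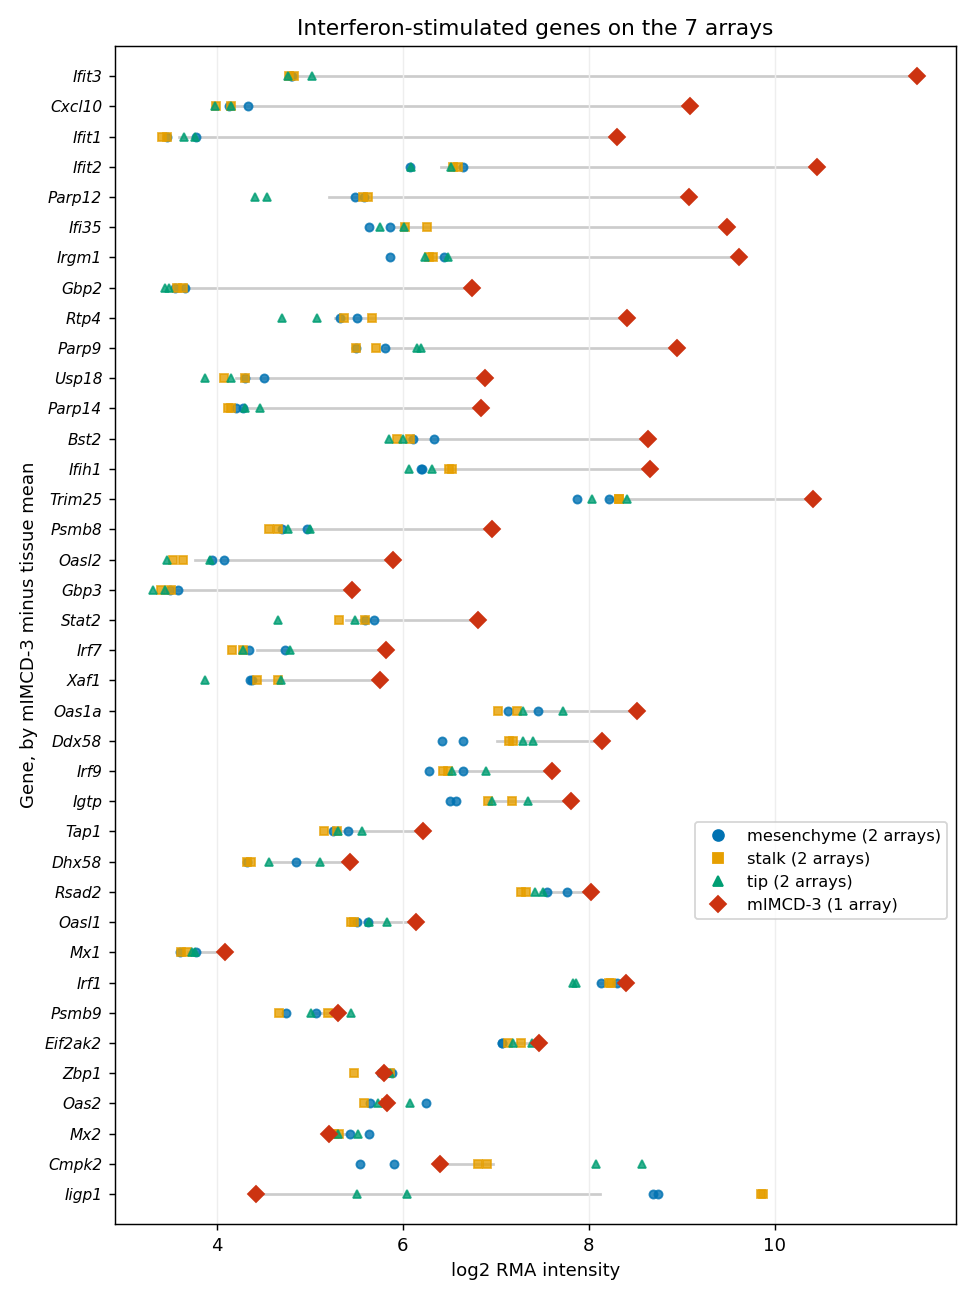
Log2 RMA intensity of the 38 measured genes on the 7 arrays, in order of mIMCD-3 minus the tissue mean, with a grey line from the tissue mean to mIMCD-3. The tissue points span less than 1 log2 unit in 34 genes, and mIMCD-3 lies from 6.70 above (Ifit3) to 3.70 below (Iigp1).

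The IFIT genes, whose products bind viral RNA and block its translation, held 3 of the 4 largest differences. Ifit3 was 4.81 and 4.80 in mesenchyme, 4.83 and 4.77 in stalk, 4.77 and 5.02 in tip and 11.53 in mIMCD-3. Its 6 tissue arrays spanned 0.25 log2 units, and mIMCD-3 exceeded their mean by 6.70, a 104-fold difference. Ifit1 was 3.47 and 3.77 in mesenchyme, 3.46 and 3.41 in stalk, 3.65 and 3.77 in tip and 8.30 in mIMCD-3, a difference of 4.71. Ifit2 was 6.65 and 6.08 in mesenchyme, 6.54 and 6.59 in stalk, 6.51 and 6.08 in tip and 10.45 in mIMCD-3, a difference of 4.04. In each of these 3 genes mIMCD-3 stood apart from all 6 tissue arrays. The tissue groups overlapped in Ifit3, while both stalk arrays of Ifit1 were the lowest, and those of Ifit2 lay above both tip arrays and within the mesenchyme range. Cxcl10, which encodes a chemokine that attracts T cells, was 4.34 and 4.13 in mesenchyme, 4.15 and 3.99 in stalk, 3.98 and 4.15 in tip and 9.08 in mIMCD-3, a difference of 4.96 or 31.1-fold. In Ifit1 and Cxcl10 every tissue array lay below the lower quartile of that array, so the size of the fold is uncertain. The Ifit3 tissue values, 4.77 to 5.02, lay close to the lower quartiles of those arrays, 4.68 to 4.94, so its fold is uncertain too.

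Other antiviral effectors were split. Rtp4, whose product restrains viral replication, was 5.33 and 5.50 in mesenchyme, 5.36 and 5.67 in stalk, 4.70 and 5.08 in tip and 8.41 in mIMCD-3, and the line lay 3.14 above the tissue mean. A second, dimmer probe set of Rtp4 gave 0.69. Bst2, the gene of tetherin, which holds budding virus at the cell surface, was 6.34 and 6.11 in mesenchyme, 5.93 and 6.08 in stalk, 6.0 and 5.85 in tip and 8.63 in mIMCD-3, 2.58 above. Both mesenchyme arrays of Bst2 lay above the stalk and tip arrays, which overlapped. Oasl2, a gene of the oligoadenylate synthetase family, was 3.95 and 4.08 in mesenchyme, 3.64 and 3.53 in stalk, 3.46 and 3.92 in tip and 5.89 in mIMCD-3, 2.13 above. Oas1a, whose product activates the ribonuclease RNase L, was 7.13 and 7.45 in mesenchyme, 7.03 and 7.22 in stalk, 7.29 and 7.73 in tip and 8.52 in mIMCD-3, 1.21 above, a difference smaller than those of the IFIT genes. The other 7 of the 14 effectors differed by less than 1 log2 unit. Among them Rsad2, the gene of viperin, differed by 0.55, Oasl1 by 0.55, the kinase gene Eif2ak2 (PKR) by 0.28 and Oas2 by -0.02. The dynamin-like GTPase genes Mx1 and Mx2 differed by 0.39 and -0.21, and Mx1 lay below the lower quartile on every array. Cmpk2, a mitochondrial nucleotide kinase gene, differed by -0.57. Rsad2 and Eif2ak2 depend on the probe set: with the median of their probe sets they differed by 1.01 and 1.25.

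The 3 ADP-ribosyltransferase genes, whose products modify proteins with ADP-ribose during antiviral signalling, were all higher in mIMCD-3. Parp12 was 5.58 and 5.48 in mesenchyme, 5.57 and 5.62 in stalk, 4.41 and 4.54 in tip and 9.07 in mIMCD-3, with the line 3.87 above the tissue mean. Parp9 was 5.50 and 5.80 in mesenchyme, 5.72 and 5.50 in stalk, 6.20 and 6.15 in tip and 8.94 in mIMCD-3, 3.13 above, and Parp14 was 4.21 and 4.29 in mesenchyme, 4.12 and 4.15 in stalk, 4.30 and 4.46 in tip and 6.84 in mIMCD-3, 2.59 above. All 3 stood clear of every tissue array, a dimmer second probe set of Parp14 gave 0.37, and the tip arrays of Parp12 formed a lower group of their own. Dtx3l, which encodes the ubiquitin ligase partner of PARP9 and is no member of the set, was 6.24 and 6.29 in mesenchyme, 6.90 and 6.96 in stalk, 7.26 and 7.39 in tip and 9.95 in mIMCD-3.

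Of the GTPase genes that act against intracellular pathogens, 3 were higher in mIMCD-3, 1 was lower and 1 lay between the thresholds. Irgm1, a regulator of the immunity-related GTPases, was 6.45 and 5.86 in mesenchyme, 6.28 and 6.32 in stalk, 6.23 and 6.49 in tip and 9.61 in mIMCD-3, 3.34 above the tissue mean. The guanylate-binding protein gene Gbp2 was 3.55 and 3.65 in mesenchyme, 3.57 and 3.64 in stalk, 3.44 and 3.49 in tip and 6.74 in mIMCD-3, 3.18 above, and Gbp3 was 3.58 and 3.49 in mesenchyme, 3.40 and 3.50 in stalk, 3.44 and 3.31 in tip and 5.45 in mIMCD-3, 1.99 above. In both Gbp genes every tissue array lay below the lower quartile of its array. Iigp1, the gene of another immunity-related GTPase, went the other way. It was 8.75 and 8.69 in mesenchyme, 9.87 and 9.85 in stalk, 6.05 and 5.51 in tip and 4.42 in mIMCD-3, so that the line lay -3.70 from the tissue mean, below the lowest tissue array. A dimmer probe set of Iigp1 put mIMCD-3 at 4.86, between its tip arrays at 5.08 and 4.60. These GTPases come from families of similar genes, and probes could read more than 1 copy.

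Feedback and ubiquitin-like genes were higher. Usp18, which removes ISG15 from proteins and restrains the receptor, was 4.31 and 4.51 in mesenchyme, 4.08 and 4.30 in stalk, 3.87 and 4.15 in tip and 6.88 in mIMCD-3, 2.68 above the tissue mean. Trim25, a ubiquitin ligase gene that activates RIG-I, was 8.21 and 7.87 in mesenchyme, 8.33 and 8.33 in stalk, 8.41 and 8.03 in tip and 10.41 in mIMCD-3, 2.21 above. The Trim25 probe set used is of the kind (suffix _s_at) that can match more than 1 gene. A second Trim25 probe set without that suffix gave 10.17 in mIMCD-3 and a difference of 2.39, and another, dimmer one gave 0.96. Ifi35, whose product binds NMI, was 5.86 and 5.63 in mesenchyme, 6.26 and 6.02 in stalk, 6.01 and 5.75 in tip and 9.49 in mIMCD-3, 3.57 above, also from such a probe set, and its other probe sets gave 2.53 and 2.12. Xaf1, an apoptosis gene, was 4.38 and 4.35 in mesenchyme, 4.65 and 4.43 in stalk, 3.87 and 4.69 in tip and 5.76 in mIMCD-3, 1.36 above. A second, dimmer probe set of Xaf1 gave -0.02.

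Of the 4 sensors of RNA and DNA, 2 were at least 1 log2 unit higher. Ifih1, the gene of MDA5, which binds long double-stranded RNA, was 6.20 and 6.19 in mesenchyme, 6.53 and 6.49 in stalk, 6.31 and 6.06 in tip and 8.66 in mIMCD-3, 2.36 above the tissue mean. Ddx58, the gene of RIG-I, which binds RNA with a triphosphate end, was 6.42 and 6.65 in mesenchyme, 7.19 and 7.14 in stalk, 7.29 and 7.40 in tip and 8.14 in mIMCD-3, 1.12 above. In Ddx58 the mesenchyme arrays lay below all others. Dhx58, the gene of the regulator LGP2, differed by 0.84, and its other probe sets gave 0.06 and -0.66. Zbp1, a sensor of Z-form nucleic acid, differed by 0.01.

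The transcription factors had smaller differences than the effectors that led the set, though not than the effectors as a list. Their median was 1.22, against 0.88 over the 14 antiviral effectors. In the same order, 3 of 4 and 7 of 14 were at least 1 log2 unit higher. Stat2 was 5.59 and 5.69 in mesenchyme, 5.31 and 5.60 in stalk, 5.49 and 4.66 in tip and 6.81 in mIMCD-3, 1.42 above the tissue mean. Irf7, which amplifies interferon alpha production, was 4.35 and 4.73 in mesenchyme, 4.16 and 4.28 in stalk, 4.28 and 4.78 in tip and 5.82 in mIMCD-3, 1.38 above, and Irf9 was 6.64 and 6.29 in mesenchyme, 6.49 and 6.43 in stalk, 6.89 and 6.52 in tip and 7.60 in mIMCD-3, 1.06 above. The line exceeded every tissue array in all 3, though tip replicate 2 of Stat2 fell well below the other tissue arrays. Irf1, an early target of interferon gamma, was at 0.31 and close to its mesenchyme and stalk arrays. Of the antigen processing genes, the immunoproteasome subunit gene Psmb8 was 4.70 and 4.97 in mesenchyme, 4.66 and 4.56 in stalk, 4.76 and 5.0 in tip and 6.96 in mIMCD-3, 2.19 above, and its second, much dimmer probe set gave 0.28. The peptide transporter gene Tap1 differed by 0.89 and the subunit gene Psmb9 by 0.28, the latter within its tissue range.

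Neighbouring genes did not always share a level of difference. In the RefSeq gene order, Rsad2 and Cmpk2 are adjacent on chromosome 12, and they differed from tissue by 0.55 and -0.57. Psmb9, Tap1 and Psmb8 are consecutive on chromosome 17, with 0.28, 0.89 and 2.19. Oasl2 and Oasl1 are adjacent on chromosome 5, with 2.13 and 0.55. Ifit2 and Ifit3 are adjacent on chromosome 19, with 3 protein-coding genes between Ifit3 and Ifit1, and all of these Ifit genes were over 4 log2 units higher. Parp14 and Parp9, with 1 such gene between them, differed by 2.59 and 3.13. Gbp3 and Gbp2, also with 1 between, differed by 1.99 and 3.18. Oas2 and Oas1a, with 6 between, differed by -0.02 and 1.21. Such pairs have no replicate in the line, and the differences between neighbours were not tested.

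The other genes of the pathway, from lists that hold no member, were described in the same way. Of all genes, 10.2% were at least 1 log2 unit higher in mIMCD-3, 9.5% at least 1 lower, and 30.7% exceeded every tissue array. The lists were chosen with earlier results of these data known, and their counts were not tested. None of 5 measured interferon ligand genes, out of 9 listed, was 1 log2 unit above tissue. Ifnk, Ifne and the interferon lambda genes Il28a and Il28b matched no probe set, and of the interferon alpha genes only Ifna1, Ifna2 and Ifna4 were listed. The ligands were thus only partly surveyed. Ifnb1, the interferon beta gene, was at 4.06 in mIMCD-3 and 4.26 to 4.66 in tissue, and 4 of the 5 ligand genes lay below the lower quartile in mIMCD-3. All 6 receptor genes exceeded every tissue array in mIMCD-3, and 4 passed 1 log2 unit: Il10rb (2.96), Ifnar2 (2.18), Ifngr2 (1.40) and the interferon lambda receptor gene Il28ra (1.27). Of 6 signal transducer genes 2 passed, Stat3 (2.85) and Irf2 (2.03). Of 11 adaptor, sensor and kinase genes 6 passed, led by Tlr4 (2.30), Mb21d1 (1.94), the gene of the DNA sensor cGAS, Tlr3 (1.88), a receptor for double-stranded RNA, and Ikbke (1.81). Of 8 negative regulators 1 passed, Ptpn11 (1.14), and Socs1 differed by -0.22.

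Genes of MHC class I and peptide loading passed in 6 of 9 cases (10.2% of all genes). The class I heavy chain genes H2-D1 and H2-K1 were 3.44 and 3.25 above tissue, the loading factor gene Tapbp 2.67 and the peptidase gene Erap1 1.62. H2-K1 and H2-D1 are distinct genes of similar sequence, so their probes may not separate them. Of 33 further interferon-stimulated genes 14 were at least 1 log2 unit higher (10.2% of all genes) and 2 lower (9.5%), with a median of 0.68. Samd9l (3.84), Isg20 (3.12), Dtx3l (3.11) and Nmi (2.42) led the higher genes, and Ifitm2 (-1.48) and Ifitm1 (-1.20) were the lower ones. The 12 macrophage markers had a median of -0.98 in this comparison and none was higher by 1 log2 unit.

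**Figure D3:**
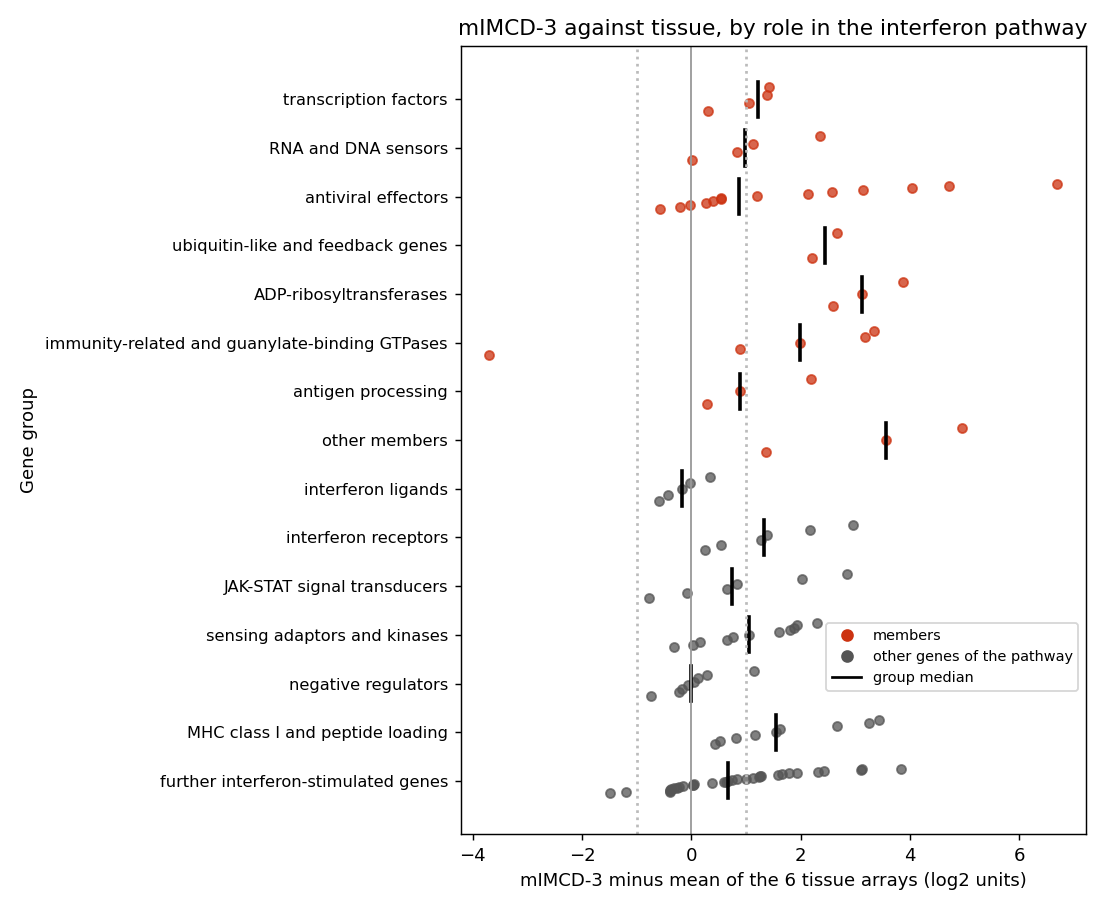
Difference of mIMCD-3 from the mean of the 6 tissue arrays (log2 units) for each gene, by role, with the members in red, the other pathway genes in grey, black bars at group medians and dotted lines at 1 log2 unit. The ligand and negative regulator medians lie near 0, and the ADP-ribosyltransferase median lies at 3.13.

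The promoters of the members were searched for the ISRE letters, GAAA followed by any 2 bases and GAAA again, on both strands, in the window from 250 bases before to 50 after each RefSeq start (assembly GRCm38.p6). Of 30 members with a promoter entry, 15 held a match in at least 1 window, a share of 50%, against 3.99% of 27025 genes with an entry. Among members at least 1 log2 unit higher in mIMCD-3 the count was 11 of 20, and among measured members that were not it was 3 of 8. The GAS letters TTCNNNGAA, the same on both strands, were found in 8 of the 30 (26.7%) and in 9.55% of all genes. A match is a description of these letters and no evidence of binding. The following stretches, with the ISRE match in capitals and 5′ to 3′ on the gene's strand, show the 6 members with the largest differences in mIMCD-3 among those with a match.
Ifit3 (chr19:34583333-34583456, + strand, bases -196 to -73 from the start): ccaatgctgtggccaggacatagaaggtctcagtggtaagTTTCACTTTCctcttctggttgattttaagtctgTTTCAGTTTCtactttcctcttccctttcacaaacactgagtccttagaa
Cxcl10 (chr5:92349053-92349139, - strand, bases -250 to -164 from the start): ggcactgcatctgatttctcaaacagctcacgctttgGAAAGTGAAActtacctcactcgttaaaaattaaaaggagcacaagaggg
Ifit1 (chr19:34640745-34640853, + strand, bases -144 to -36 from the start): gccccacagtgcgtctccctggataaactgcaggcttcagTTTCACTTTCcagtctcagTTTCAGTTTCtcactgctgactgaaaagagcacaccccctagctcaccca
Irgm1 (chr11:48871421-48871490, - strand, bases -70 to -1 from the start): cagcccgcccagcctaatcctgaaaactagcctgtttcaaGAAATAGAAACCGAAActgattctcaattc
Gbp2 (chr3:142620564-142620653, + strand, bases -99 to -10 from the start): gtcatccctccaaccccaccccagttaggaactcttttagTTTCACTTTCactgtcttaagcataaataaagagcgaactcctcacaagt
Bst2 (chr8:71537547-71537642, - strand, bases -170 to -75 from the start): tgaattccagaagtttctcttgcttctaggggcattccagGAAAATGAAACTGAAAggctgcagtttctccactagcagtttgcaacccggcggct

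In Ifit3 and Ifit1 the element appears as separate copies on the opposite strand, read as TTTC on each side of the 2 free bases, and the copies nearest the start begin at position -122 in Ifit3 and -85 in Ifit1. In Irgm1 and Bst2 a pair of matches overlaps and forms 1 longer run, which begins at -30 and at -130. The members with a match that lay nearest to the tissue mean in mIMCD-3 were Eif2ak2, Rsad2 and Igtp, with differences of 0.28, 0.55 and 0.90.
Eif2ak2 (chr17:78882535-78882564, - strand, bases 9 to 38 from the start): agtccgccggGAAAACGAAAcagaagagaa
Rsad2 (chr12:26456523-26456612, - strand, bases -160 to -71 from the start): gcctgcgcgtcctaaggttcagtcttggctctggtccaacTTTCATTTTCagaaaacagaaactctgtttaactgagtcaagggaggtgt
Igtp (chr11:58199482-58199555, + strand, bases -74 to -1 from the start): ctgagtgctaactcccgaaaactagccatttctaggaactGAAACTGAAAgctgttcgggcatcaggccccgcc

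The same letters thus lie in the windows of genes with differences from 0.28 to 6.70; in Eif2ak2 they begin after the start, at position 19. Ifit2, with a difference of 4.04, held no ISRE match in its windows, and neither did Parp12 or Trim25. Irf1 held a GAS match beginning at -90 from its start and no ISRE match. The sequence of a window without a match says only that these letters are not in it.

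Between the dissected tissues, which the choice of the genes did not use, the set varied about as much as other genes. The 6 tissue arrays spanned less than 1 log2 unit in 34 of the 38 genes (89.5%, against 86.1% of all genes), and the median span was 0.59, against 0.52 over all genes. The main limma fit of the 6 tissue arrays did not use the replicate number. In it, 33 of the 38 passed no contrast (86.8%, against 82.5% of all genes). The other 5 passed at least 1 (Benjamini-Hochberg adjusted p under 0.05 over 18193 genes). These were Iigp1, Cmpk2, Parp12, Ddx58 and Igtp. Parp12 and Ddx58 were also among the 24 genes high in mIMCD-3. With the replicate number fitted as a block, further members passed, and so did more of all genes, as given below. The labels call the arrays biological replicates without saying how embryos were pooled, so the p-values measure the spread between these arrays. In whole tissue, fewer cells of a type and less RNA per cell cannot be told apart.

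Stalk exceeded mesenchyme in 3 genes, a share of 7.89% against 4.3% of all genes, and fell below it in 0 (1.24% of all genes); 7 of the 38 had an unadjusted p under 0.05 (13.3% of all genes). Tip exceeded mesenchyme in 3 (7.38% of all genes) and fell below it in 2 (8.37%), with 9 at an unadjusted p under 0.05 (25.1%). Tip exceeded stalk in 1 (2.86%) and fell below it in 2 (6.97%), with 7 at an unadjusted p under 0.05 (21.9%). These shares are near those of all genes, and the median differences were -0.04, 0.04 and 0.11 log2 units. The contrasts with mesenchyme share the same mesenchyme arrays.

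Iigp1 had the widest span of the set, 4.36 log2 units, with 8.75 and 8.69 in mesenchyme, 9.87 and 9.85 in stalk, 6.05 and 5.51 in tip and 4.42 in mIMCD-3. No tissue group overlapped another. It was -4.08 ± 0.18 in tip minus stalk (adjusted p = 2.89e-05), a 17-fold difference, and -2.94 ± 0.18 in tip minus mesenchyme (adjusted p = 2.73e-05). In stalk it was 1.14 ± 0.18 above mesenchyme (adjusted p = 0.0106), which did not pass without mesenchyme replicate 2 (adjusted p = 0.0542) or without stalk replicate 1 (adjusted p = 0.0532). The dimmer probe set gave differences of -4.16, -3.03 and 1.13 in the same order. The mean of the mesenchyme marker Pdgfra was 11.09 in stalk, against 10.90 in mesenchyme and 7.59 in tip. Pdgfra was not called between stalk and mesenchyme. The 8 mesenchyme markers as a list had a median stalk minus mesenchyme difference of -1.66, with 6 called lower and 0 higher. Of the macrophage markers 10 of 12 were lower in tip than in mesenchyme, 1, Ptprc, was higher, and the summed levels given above fell from mesenchyme to stalk, where Iigp1 rose. The part of other cells in the Iigp1 values was not tested.

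Cmpk2 ran in the opposite direction along the bud. It was 5.91 and 5.53 in mesenchyme, 6.91 and 6.81 in stalk, 8.57 and 8.07 in tip and 6.40 in mIMCD-3, and the tissue groups did not overlap. Stalk exceeded mesenchyme by 1.14 ± 0.20 (adjusted p = 0.0164), tip exceeded mesenchyme by 2.60 ± 0.20 (adjusted p = 8.27e-05) and tip exceeded stalk by 1.46 ± 0.20 (adjusted p = 0.00324). Its second probe set gave 0.77, 1.97 and 1.20. Its stalk difference did not pass without mesenchyme replicate 2, stalk replicate 1 or stalk replicate 2 (adjusted p = 0.0926, 0.0849 and 0.0529). Rsad2, the adjacent gene, was 7.55 and 7.76 in mesenchyme, 7.27 and 7.32 in stalk, 7.42 and 7.51 in tip and 8.02 in mIMCD-3 and passed no contrast. Macrophage and endothelial sums fell over the groups in which Cmpk2 rose, and the part of other cells in the Cmpk2 values was not tested.

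Parp12 was lower in tip than in both other tissues. It was 5.58 and 5.48 in mesenchyme, 5.57 and 5.62 in stalk, 4.41 and 4.54 in tip and 9.07 in mIMCD-3. Tip minus mesenchyme was -1.06 ± 0.13 (adjusted p = 0.000817) and tip minus stalk was -1.12 ± 0.13 (adjusted p = 0.0012), while stalk minus mesenchyme was 0.06 ± 0.13 (adjusted p = 0.921). Both calls held without any 1 array, and the gene was not tested where the dimmest 40% of genes were removed. The mesenchyme, macrophage and endothelial marker sums were lower in tip too, as given above, and their part in the Parp12 difference was not tested.

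Ddx58 was higher in the bud than in mesenchyme. Its arrays were 6.42 and 6.65 in mesenchyme, 7.19 and 7.14 in stalk, 7.29 and 7.40 in tip and 8.14 in mIMCD-3, and both bud groups lay above both mesenchyme arrays. Stalk exceeded mesenchyme by 0.62 ± 0.14 (adjusted p = 0.0403) and tip by 0.81 ± 0.14 (adjusted p = 0.00498), and tip minus stalk was 0.19 ± 0.14 (adjusted p = 0.478). A second probe set gave 0.99 and 0.86, and the third, a dim one, gave -0.19 and 0.01. The stalk call ended when any 1 of the mesenchyme or stalk arrays was left out (adjusted p from 0.0817 to 0.355) and when arrays were centred on their medians (adjusted p = 0.0929), and neither call held with the median of the probe sets (adjusted p = 0.222 and 0.206). Igtp, a GTPase gene, was 6.57 and 6.51 in mesenchyme, 6.91 and 7.17 in stalk, 6.95 and 7.34 in tip and 7.81 in mIMCD-3. Its tip minus mesenchyme difference of 0.61 ± 0.17 lay at the threshold (adjusted p = 0.050) and ended under 8 of 13 alternatives, whose adjusted p ran from 0.00901 with the replicate block to 0.192 without mesenchyme replicate 2.

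**Figure D4:**
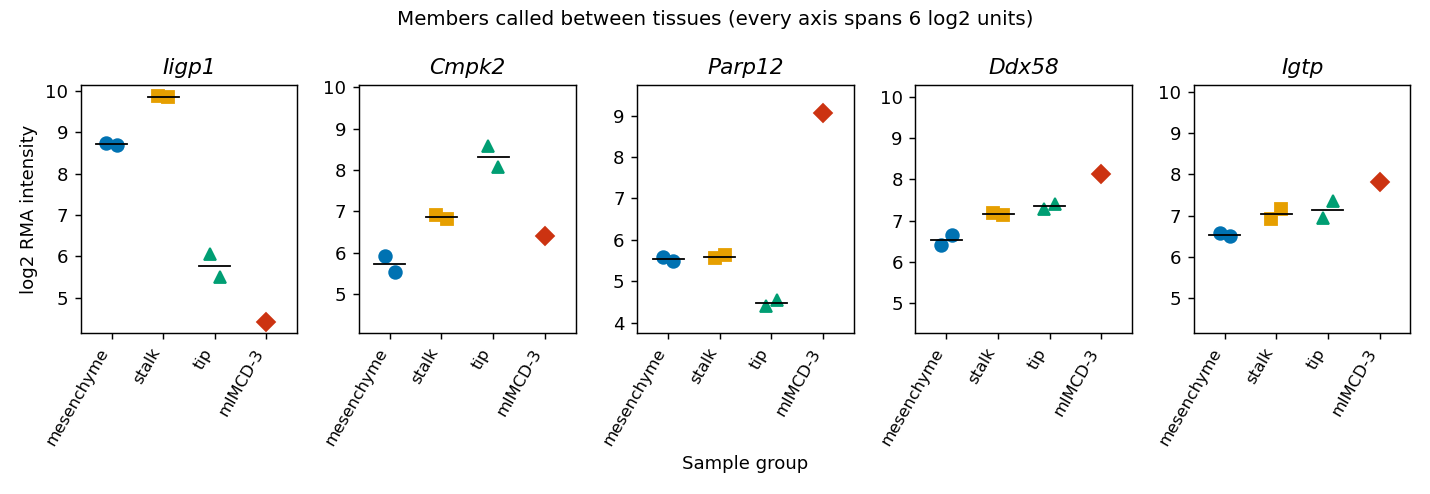
Log2 RMA intensity on each array of the 5 genes that passed a tissue contrast, with black bars at the means of 2 arrays; every axis spans 6 log2 units. Iigp1 falls from 9.87 and 9.85 in stalk to 6.05 and 5.51 in tip, and Cmpk2 rises from mesenchyme to tip.

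Arrays with the same replicate number deviated together, so the number was also fitted as a block. With that replicate block 5 genes were higher in stalk than in mesenchyme (6.77% of all genes) and 0 lower (3.17%), adding Igtp (adjusted p = 0.0465) and Ifi35 (adjusted p = 0.0462). Against mesenchyme, tip was higher in 4 (11.2% of all genes) and lower in 5 (12.8%), adding Parp9 at 0.52 ± 0.14 (adjusted p = 0.0244), Rtp4 at -0.52 ± 0.11 (adjusted p = 0.00745), Usp18 at -0.40 ± 0.10 (adjusted p = 0.0222) and Irf1 at -0.37 ± 0.11 (adjusted p = 0.0330). Against stalk, tip was higher in 3 (8.92%) and lower in 4 (11.7%), adding Parp9 at 0.57 ± 0.14 (adjusted p = 0.0217), Oas1a at 0.38 ± 0.11 (adjusted p = 0.0426), Rtp4 at -0.63 ± 0.11 (adjusted p = 0.00419) and Irf1 at -0.38 ± 0.11 (adjusted p = 0.0379). All calls made without the block held with it. The blocked shares rose for all genes as well. Without tip replicate 2, Oasl2 and Rtp4 also passed as lower in tip than in mesenchyme, and Rtp4 and Xaf1 as lower than in stalk. The lone tip array left is then assumed to vary like the other groups, so nothing is read from these added calls.

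Of the 78 other pathway genes, 6 were called between stalk and mesenchyme (7.69%, against 5.54% of all genes), 16 between tip and mesenchyme (20.5%, against 15.7%) and 5 between tip and stalk (6.41%, against 9.83%). Neither the measured ligands nor, between stalk and mesenchyme, the receptors passed. In tip, 2 of 6 receptor genes were lower than in mesenchyme, Ifngr2 (-0.76) and Ifnar2 (-0.69). Jak2, a kinase gene of the interferon gamma receptor, was higher than in mesenchyme in stalk (0.83) and tip (1.20). Mavs, the adaptor gene through which RIG-I and MDA5 signal, was higher in tip than in mesenchyme (1.27), with 7.93 and 7.54 in mesenchyme, 8.42 and 8.35 in stalk and 9.20 and 8.81 in tip. Socs3, a feedback inhibitor gene, was lower in tip than in mesenchyme (-1.37) and stalk (-1.57). The probe sets used for Mavs and Socs3 (suffix _x_at) may, like the _s_at kind, match more than 1 gene. For the pathway genes only the probe set used is given, and their other probe sets were not compared here. Of 9 genes of MHC class I and peptide loading, Tapbp was higher in stalk (0.79) and tip (0.69) than in mesenchyme, Erap1 was higher in tip (0.78) and B2m lower in tip (-0.66).

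Of the 33 further interferon-stimulated genes, 3 were higher (4.3% of all genes) and 1 lower (1.24%) in stalk than in mesenchyme. In tip 5 were higher (7.38% of all genes) and 3 lower (8.37%) than in mesenchyme. Ly6e, Samd9l and Dtx3l were higher in both stalk (1.36, 1.70 and 0.66) and tip (1.80, 1.57 and 1.06). Plscr1, a phospholipid scramblase gene, was higher in tip than in mesenchyme (1.60) and stalk (0.84). Ifitm1, whose product blocks viral entry, was lower in stalk (-0.68) and tip (-1.15), and Ifi27 was lower in tip than in mesenchyme (-1.06) and stalk (-0.85). The probe sets used for Ly6e and Ifi27 are of the _s_at kind, and their other probe sets were not compared here. The median of these 33 genes was 0.05 in stalk and -0.10 in tip, against -0.04 and 0.01 over all genes.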

How the data were processed

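Total RNA from 3 dissected tissues (2 arrays each) and from mIMCD-3 (1 array) was hybridised to Affymetrix Mouse Genome arrays. The deposited values are intensities on a linear scale that the authors recalculated over all 7 arrays by robust multichip analysis, per the series' design text; the software is not given in the sources used here. Here log2 was taken of the deposited intensities. Of 45101 probe sets, 34945 had 1 gene in the platform annotation, 932 several and 9160 none. Each of 18193 genes was read from its probe set with the highest mean over the 7 arrays, with no filter on dim genes. The number of arrays limits the precision.

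The members and lists were chosen with earlier results of these data known. The tissue arrays were fitted with limma 3.58.1 in R 4.3.3 (lmFit, eBayes, 3 residual degrees of freedom), with two-sided p-values adjusted by Benjamini-Hochberg over all genes and called under 0.05, and ± gives the standard error. The mIMCD-3 array was described against the mean of the 6 tissue arrays, with 1 log2 unit as the size named. Members past that size or called in tissue are given on every array, and at most 4 genes of each further list by size; Ifnb1, Socs1, B2m, Ifitm2, Dtx3l and Ifi27 were added after their values were seen. The replicate 1 minus replicate 2 differences of each pair of tissues correlated across genes at 0.433 to 0.590. The replicate number was therefore also fitted as a block, beside the main fit without it. That pairing comes from the data, not from the labels. The alternatives were that block, other probe set rules, centring, a variance trend, a filter on dim genes, the groups alone and leaving out each array. The fitting code was tested on simulated data. Promoters and gene order are from RefSeq, assembly GRCm38.p6, and the arrays' probe coordinates were not used here.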

Additional observations from a re-analysis of the deposited data

How the results depend on the processing

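Of the called tissue differences of single genes, 121 values over all alternatives kept their direction and their side of the threshold and 20 kept the direction but no longer passed; none reversed. With the replicate block the members called rose to 5 higher in stalk than in mesenchyme, 5 lower in tip than in mesenchyme, 3 higher in tip than in stalk and 4 lower in tip than in stalk; it ended no call. Leaving out 1 array gave 0 to 3 members higher in stalk than in mesenchyme (0 without mesenchyme replicate 2 or stalk replicate 1, 1 without stalk replicate 2), 2 to 4 lower in tip than in mesenchyme and 2 to 4 lower in tip than in stalk (4 in both without tip replicate 2); the lone array left in a group is then assumed to vary like the other groups. With arrays centred on their medians, 2 members were higher in tip than in stalk, Cmpk2 and Parp9. Without the dimmest 40% of genes, 1 member was lower in tip than in stalk, since Parp12 was not tested, and 10 were higher in mIMCD-3, since 16 of the 38 genes remained. Against the 4 bud arrays alone, 2 members were at least 1 log2 unit lower in mIMCD-3, Cmpk2 and Iigp1. Centring moved the median of all genes by 0.16 log2 units in mIMCD-3 against tissue and by 0.12 in tip against stalk. Of the single-gene mIMCD-3 differences, 373 moved by less than the replicate spread and 61 by more, and none reversed a value past 1 log2 unit. RMA folds of genes near background are compressed, and the single mIMCD-3 array has no replicate error.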
